A study of Mus musculus with 24 samples.

Results

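The E protein genes Tcf3, Tcf4 and Tcf12 and the genes of their inhibitors Id1, Id2 and Id3 were followed across 7 groups of mouse blood progenitors. The 6 genes were taken as all probe sets whose only gene symbol in the platform annotation was a listed gene, which gave 16 of 22626 probe sets (6 of 12393 named genes). RNA from C57BL/6 mice was measured on 24 arrays. In 4 groups, granulocyte monocyte progenitors (GMP, the precursors of neutrophils and monocytes) had been transduced with a vector and the GFP positive cells were harvested 36 hours after spinoculation. These carried MOZ-TIF2 (MT2, 4 arrays), NUP98-HOXA9 (NHA9, 3 arrays), AML1-ETO (AE, 4 arrays) or the empty GFP vector (GFP, 3 arrays). The other groups were sorted leukemic GMP from a MOZ-TIF2 leukemia (L-GMP, 3 arrays), sorted untransduced LSK cells, titled HSC, the population that holds the blood stem cells (LSK, 3 arrays), and sorted untransduced GMP (GMP, 4 arrays). The labels name no promoter for the vectors. They do not state whether replicates came from different animals, infections or leukemias, so p-values rest on a spread between arrays that may be technical.

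E proteins are basic helix-loop-helix transcription factors that bind E-box DNA as dimers with each other or with tissue-specific partners such as Tal1 and Lyl1. Id proteins have the dimerization domain but no DNA-binding region, so a dimer of an Id and an E protein does not bind DNA. In blood, E proteins are best known for driving B and T cell development and Tcf4 for plasmacytoid dendritic cells, while Id2 is needed for innate lymphoid cells and Id genes are textbook targets of BMP and Smad signalling. The oncogenes are fusions found in acute myeloid leukemia. MOZ-TIF2 joins an acetyltransferase to a nuclear receptor coactivator, NUP98-HOXA9 joins a nucleoporin to a homeobox factor, and the ETO part of AML1-ETO belongs to a corepressor family that binds E proteins.

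Values are the authors' log2 expression estimates, each array giving 1 value per probe set. A value counts as above background when it is over 60 on the linear scale, which is 5.91 on the log2 scale. A probe set was tested if 2 or more arrays of either compared group were over 60, and it was called when limma's Benjamini-Hochberg adjusted p over all tested probe sets was under 0.05. Where the mean of a group was under 60, a fold is given only as a lower bound, the other group's mean against 60. Each gene is represented by whichever of its probe sets was brightest on average, here called the leading one. In bulk RNA, fewer cells that express a gene and less RNA per cell cannot be told apart.

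The leading probe sets of Id2 and Id3 had the widest spans of group means, counted down to means below background. Their promoters are shown because both genes moved together while the letters before their starts differ. Id2 lies on chromosome 12 at 25093799 to 25096092 and Id3 on chromosome 4 at 136143822 to 136145392 (RefSeq, GRCm38.p6). Id1 lies on chromosome 2 at 152736251 to 152737410. The 250 bases before each start, on the strand of the gene, come from RefSeq, and 4 of the 6 genes had an entry. The windows are chr12:25096093-25096342 (minus strand) for Id2 and chr4:136143572-136143821 (plus strand) for Id3. Capitals mark matches on either strand to the E-box CANNTG and to GGCGCC, a GC-rich sequence.
Id2: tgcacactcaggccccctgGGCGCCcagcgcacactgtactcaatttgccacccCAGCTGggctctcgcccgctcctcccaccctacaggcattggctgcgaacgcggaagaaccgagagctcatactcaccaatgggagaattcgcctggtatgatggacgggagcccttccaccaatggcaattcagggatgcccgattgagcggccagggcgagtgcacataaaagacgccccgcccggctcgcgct
Id3: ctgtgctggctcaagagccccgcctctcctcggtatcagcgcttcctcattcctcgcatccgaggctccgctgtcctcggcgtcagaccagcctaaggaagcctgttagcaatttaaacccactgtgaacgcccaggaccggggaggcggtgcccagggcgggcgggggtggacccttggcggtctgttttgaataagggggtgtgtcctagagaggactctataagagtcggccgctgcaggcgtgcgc

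The Id2 window held 1 E-box, CAGCTG, 196 to 191 bases before the start, and 1 GGCGCC, 231 to 226 bases before it. It also held 3 matches to CCAAT on either strand, which are not in capitals. The Id3 window held 0 matches to each of the 3 motifs. Of 32851 promoter windows of the same length, 66.2% held CANNTG, 9.59% GGCGCC and 33.8% CCAAT, so an E-box in such a window is common.

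The arrays were alike in the share of probe sets over 60, which was 46.1% to 48.3%. The median correlation of an array with the others of its group, over all probe sets, was lowest on L-GMP 1 (0.951), L-GMP 3 (0.963), GMP 2 (0.964) and L-GMP 2 (0.968). It was 0.978 on NHA9 3 and AE 1 and 0.986 to 0.994 on the other 18 arrays. L-GMP 1 also had the largest 3' to 5' difference of the Gapdh control probe sets, 4.82 on the log2 scale, where the lowest array had 2.50. File names carry a tag that divides the arrays. Tag A covered 3 of 4 MT2, 2 of 3 NHA9, 1 of 4 AE, 3 of 3 GFP, 1 of 3 L-GMP, 2 of 3 LSK and 3 of 4 GMP arrays, and tag B covered MT2 4, AE 2 to 4 and GMP 4. Of 7 GMP markers on the array, all were over 60 on every array of the transduced groups, of GMP and of LSK cells, and 6 were so on every L-GMP array. They summed to 49093 to 54407 on the linear scale in GMP, against 13333 to 21866 in LSK cells. The 8 LSK markers summed to 6079 to 7869 on the linear scale in LSK cells, against 1634 to 3085 in GMP, with Mecom and Tek under 60 in LSK cells. The B cell markers Cd79a, Ms4a1, Pax5 and Blk, the T cell markers Cd3d, Cd3g and Cd8a and the innate lymphoid markers Ncr1, Klrd1, Gzma and Il2rb were under 60 on all 24 arrays. The fifth B cell marker, Cd79b, was over 60 on every array, and the T cell marker Lat was over 60 on every L-GMP, LSK and GMP array.

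Across the 7 groups the leading probe sets of the E protein genes stayed over background on every array and had the smaller spans, while Id2 and Id3 moved between below background and well above it. Group means spanned 1.23 for Tcf3, 1.87 for Tcf4 and 1.29 for Tcf12 on the log2 scale. They spanned 3.16 for Id1, 4.01 for Id2 and 4.88 for Id3. The lowest means were below background, at 5.63 in LSK cells for Id1, 4.48 in L-GMP for Id2 and 3.92 in GMP for Id3. The order of these spans therefore rests in part on values below background. Means of the Id2 probe set 1422537_a_at ran from 4.91 in LSK cells to 7.50 in AE cells. Id2 and Id3 had their highest mean in AE and their leading probe sets lay below background on all 10 arrays of L-GMP, LSK and GMP. The Id2 probe set 1422537_a_at was over background on 1 of these, GMP 2, at 6.62. Their 7 group means correlated at 0.97, as a description over groups that share normalization and culture.

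**Figure D1:**
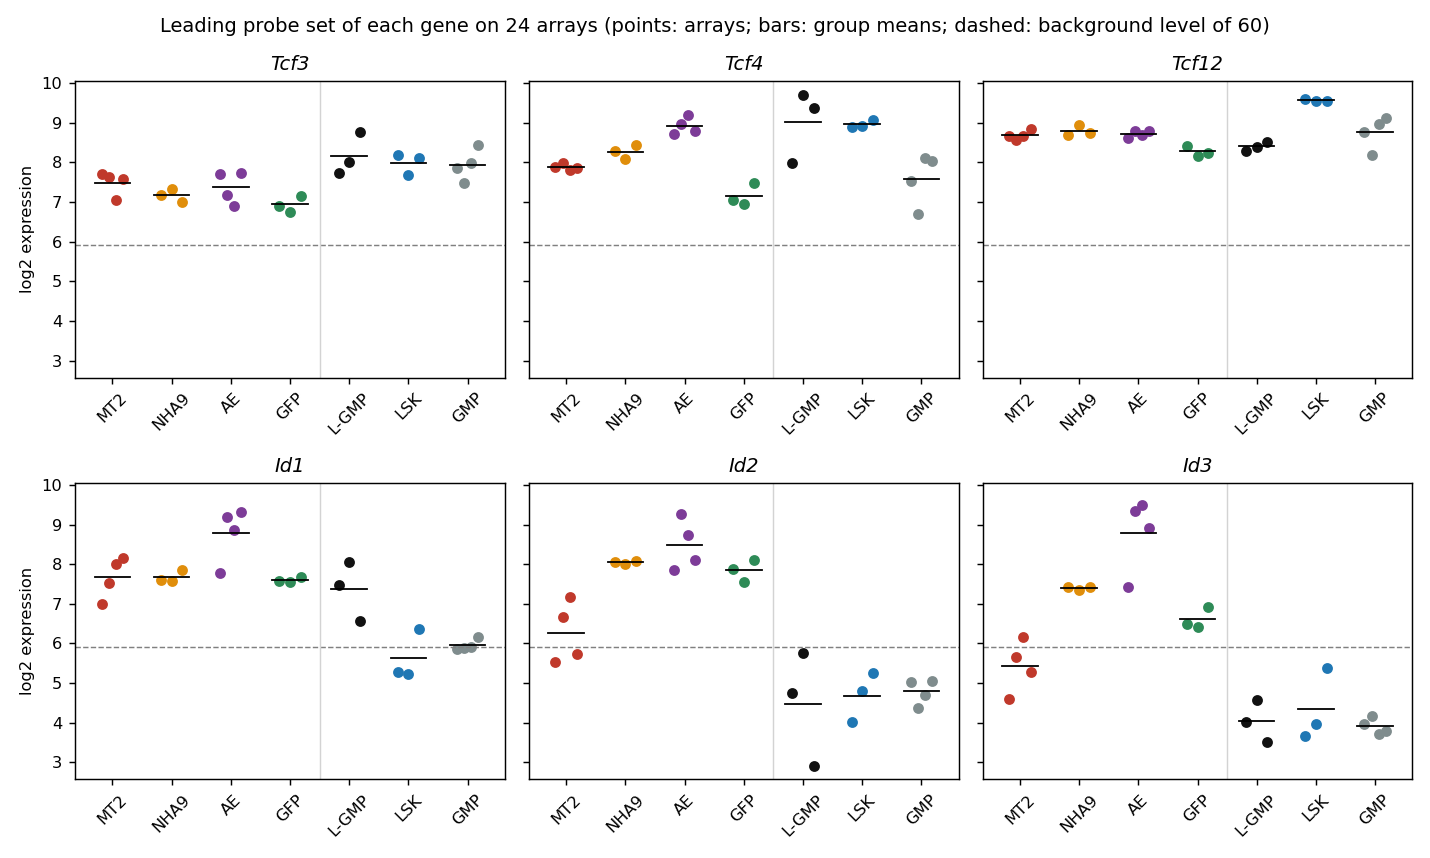
Log2 expression (vertical axis) of the leading probe set of each of the 6 genes on 24 arrays, in 7 groups along the horizontal axis. Points are arrays, bars are group means, and the dashed line is the background level of 5.91. All arrays of L-GMP, LSK and GMP lie below it for Id2 and Id3.

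The inhibitors are described first. Id2 had values of 5.53, 6.66, 7.17 and 5.73 in MT2 cells, 8.05, 8.01 and 8.09 in NHA9 cells, 7.85, 9.27, 8.74 and 8.09 in AE cells and 7.88, 7.55 and 8.11 in GFP cells. It had 4.76, 5.76 and 2.91 in L-GMP, 4.00, 4.80 and 5.24 in LSK cells and 5.04, 4.36, 4.70 and 5.06 in GMP. AE, NHA9 and GFP arrays overlapped at the top, MT2 arrays lay apart below them with 2 of 4 over background, and L-GMP, LSK and GMP arrays overlapped at the bottom. L-GMP 2 lay above MT2 1 and MT2 4, so MT2 and L-GMP overlapped.

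Id3 had 4.60, 5.67, 6.17 and 5.28 in MT2 cells, 7.42, 7.36 and 7.42 in NHA9 cells, 7.43, 9.34, 9.50 and 8.91 in AE cells and 6.50, 6.41 and 6.92 in GFP cells. It had 4.00, 4.57 and 3.51 in L-GMP, 3.66, 3.97 and 5.37 in LSK cells and 3.98, 4.17, 3.73 and 3.79 in GMP. The order was AE, NHA9, GFP and MT2 with no overlap between neighbours, although AE 1 lay only just above the NHA9 arrays. MT2, LSK, L-GMP and GMP followed with overlapping arrays, and 1 of 4 MT2 arrays was over background.

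Id1 had 6.99, 7.53, 8.00 and 8.16 in MT2 cells, 7.60, 7.59 and 7.86 in NHA9 cells, 7.78, 9.20, 8.86 and 9.31 in AE cells and 7.57, 7.55 and 7.67 in GFP cells. It had 7.47, 8.05 and 6.57 in L-GMP, 5.28, 5.24 and 6.37 in LSK cells and 5.86, 5.89, 5.91 and 6.16 in GMP. Every transduced and leukemic array lay above every LSK and GMP array, and within the transduced groups neighbouring groups overlapped. In MT2, AE and GMP, which hold both tags, the tag B arrays were at or near the top of their group: MT2 4, AE 2 to 4 and GMP 4 against the tag A arrays beside them.

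Among the E protein genes, Tcf4 had the widest span. It had 7.90, 7.99, 7.82 and 7.85 in MT2 cells, 8.30, 8.08 and 8.44 in NHA9 cells, 8.72, 8.98, 9.19 and 8.81 in AE cells and 7.05, 6.95 and 7.49 in GFP cells. It had 8.00, 9.72 and 9.37 in L-GMP, 8.91, 8.93 and 9.08 in LSK cells and 7.52, 6.69, 8.12 and 8.03 in GMP. L-GMP, LSK and AE overlapped at the top, NHA9 lay apart below AE and above MT2, and MT2, GMP and GFP overlapped in turn.

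Tcf12, which encodes the E protein HEB, had 8.57 to 8.85 in MT2 cells, 8.70 to 8.94 in NHA9 cells, 8.61 to 8.80 in AE cells and 8.16 to 8.43 in GFP cells. It had 8.30 to 8.52 in L-GMP, 9.54 to 9.59 in LSK cells and 8.20 to 9.13 in GMP. LSK arrays lay above all others, and L-GMP and GFP arrays overlapped at the lower end. Tcf3 had 7.05 to 7.70 in MT2 cells, 7.01 to 7.33 in NHA9 cells, 6.91 to 7.74 in AE cells and 6.76 to 7.16 in GFP cells. It had 7.73 to 8.77 in L-GMP, 7.69 to 8.19 in LSK cells and 7.49 to 8.44 in GMP. All neighbours in the order of Tcf3 means, from L-GMP down to GFP, overlapped.

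**Figure D2:**
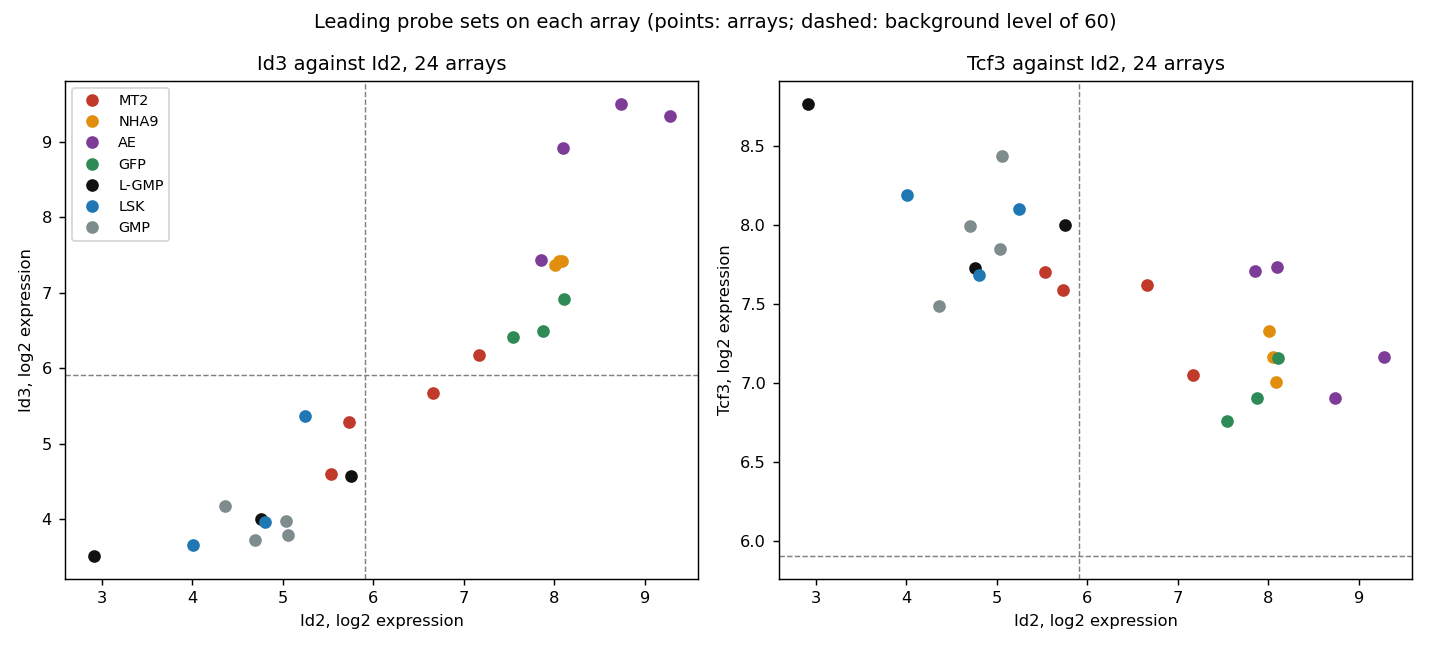
Log2 expression of Id3 (left panel, vertical axis) and of Tcf3 (right panel, vertical axis) against Id2 (horizontal axis) on each of 24 arrays, coloured by group, with dashed lines at the background level of 5.91. L-GMP, LSK and GMP arrays lie at low Id2 with Tcf3 between 7.49 and 8.77, and GFP arrays lie at high Id2 with Tcf3 between 6.76 and 7.16. AE arrays also lie at high Id2, with Tcf3 between 6.91 and 7.74, overlapping the range of L-GMP, LSK and GMP.

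MT2 cells were compared with GFP cells to ask what MOZ-TIF2 does within 36 hours. Id2 and Id3 were lower and Tcf4 and Tcf12 higher in MT2 cells, so 4 of the 6 genes were called, in a comparison in which 11.8% of all tested probe sets were called. Id2 averaged 6.27 ± 0.77 in MT2 cells (SD, n = 4) and 7.85 ± 0.28 in GFP cells (SD, n = 3), a 2.98-fold lower level (log2 difference -1.57, SE 0.35, limma adjusted p = 0.0217). A second Id2 probe set, 1422537_a_at, gave -1.03 (SE 0.22, adjusted p = 0.0204). Id3 averaged 5.43 ± 0.66 in MT2 cells (n = 4), below background, and 6.61 ± 0.27 in GFP cells (n = 3), at least 1.63-fold lower (log2 difference -1.18, SE 0.31, limma adjusted p = 0.0353). For both genes the arrays of the groups did not overlap.

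Tcf4 averaged 7.89 ± 0.074 in MT2 cells (SD, n = 4) and 7.16 ± 0.29 in GFP cells (SD, n = 3), 1.65-fold higher (log2 difference 0.73, SE 0.14, limma adjusted p = 0.0152), and 4 of its 5 tested probe sets were called. Tcf12 was 1.33-fold higher (0.42, SE 0.12, adjusted p = 0.0464), but its other probe set, 1421908_a_at, gave 0.090 (adjusted p = 0.703), and leaving out any 1 of the 7 arrays ended the call (adjusted p 0.0577 to 0.167). Tcf3 had a difference of 0.55 (SE 0.17, adjusted p = 0.0634) and was called without MT2 3 (0.70, adjusted p = 0.0135). Id1 had 0.071 (SE 0.24, adjusted p = 0.865).

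The Id2 call was lost without GFP 1, GFP 2 or GFP 3 (adjusted p 0.0663 to 0.0737) and the Id3 call without MT2 4 or any GFP array (0.0773 to 0.112). The Tcf4 call was lost without GFP 1 or GFP 2 (0.0543 and 0.0697). Within tag A the differences were -1.39 for Id2 (adjusted p = 0.0497), -1.13 for Id3 (0.0773) and 0.74 for Tcf4 (0.0285). Among marker genes, the LSK marker Meis1 (2.19, limma adjusted p = 0.0104) and the plasmacytoid dendritic marker Irf8 (1.10, 0.0371) were higher in MT2 cells, 1 of 4 and 1 of 3 tested of their lists, and 0 of 7 GMP markers were called. Meis1 averaged 6.28 in MT2 cells and 4.09, below background, in GFP cells, so its rise was at least 1.29-fold. The 5 plasmacytoid dendritic markers summed to 894 to 1984 in MT2 cells, against 526 to 864 in GFP cells, with Ly6d and Ccr9 under 60 in both groups. Irf8 is not particular to such cells here: it averaged 10.06 in MT2 cells, 8.96 in GFP cells and 10.71 in fresh GMP. The 8 LSK markers summed to 882 to 1069 in MT2 cells, against 687 to 858 in GFP cells. Their part in the result was not tested.

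AE cells were compared with GFP cells for AML1-ETO, and Id3 moved the other way than in MT2 cells. Tcf4, Id1 and Id3 rose in AE cells, 3 of the 6 genes, where 11.0% of tested probe sets were called. Tcf4 averaged 8.92 ± 0.21 in AE cells (SD, n = 4) and 7.16 ± 0.29 in GFP cells (SD, n = 3), 3.39-fold higher (log2 difference 1.76, SE 0.18, limma adjusted p = 0.00137). All 5 tested Tcf4 probe sets were called, and the call held without any 1 array (adjusted p up to 0.0112) and within tag A (1.55, adjusted p = 0.0102).

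Id3 averaged 8.80 ± 0.94 in AE cells (n = 4) and 6.61 ± 0.27 in GFP cells (n = 3), 4.55-fold higher (log2 difference 2.19, SE 0.43, limma adjusted p = 0.0121). Id1 averaged 8.79 ± 0.70 in AE cells and 7.60 ± 0.066 in GFP cells, 2.28-fold higher (1.19, SE 0.32, adjusted p = 0.0432). Both rises were larger on the 3 tag B arrays of AE than on AE 1, the only AE array of tag A. Without AE 1 they were 2.64 for Id3 (adjusted p = 9.94e-05) and 1.52 for Id1 (0.000287). Within tag A, where AE 1 alone stands for the group and is assumed to vary like GFP, they were 0.82 for Id3 (adjusted p = 0.0488) and 0.18 for Id1 (0.480).

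The Id1 call in AE cells was also lost without AE 2, AE 3, AE 4 or any GFP array (adjusted p 0.0899 to 0.161), and the Id3 call without GFP 1 or GFP 2 (0.0548 and 0.0677). Id2 had a difference of 0.64 in AE cells (SE 0.31, adjusted p = 0.208), and it was called without AE 1 (0.86, adjusted p = 0.0460) while it was 0.0088 within tag A (0.984). Tcf12 had 0.44 (SE 0.14, adjusted p = 0.0669) and Tcf3 0.44 (SE 0.22, adjusted p = 0.230). Without AE 1 Tcf12 was called (0.48, adjusted p = 0.0232), and within tag A Tcf3 was called (0.77, 0.0419).

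Markers of several cell types moved with these genes in AE cells. Of 5 mast cell and basophil markers on the array and 3 tested, Hdc (1.54, limma adjusted p = 0.0197) and Cpa3 (1.73, 0.0269) were higher, and the list summed to 680 to 1442 in AE cells, against 418 to 496 in GFP cells. Ms4a2 and Fcer1a, which encode parts of the IgE receptor, stayed under 60 in both groups. The LSK marker Cd34 (1.98, adjusted p = 0.00192), the B cell marker Cd79b (1.29, 0.00848), the conventional dendritic marker H2-Ab1 (0.69, 0.0398) and the macrophage marker Cd68 (0.57, 0.0458) were also higher in AE cells, each 1 gene of its list. Of 7 GMP markers Csf1r was higher (0.67, adjusted p = 0.0145), while Ms4a3 (-1.13, 0.0165), Elane (-1.03, 0.0166) and Mpo (-0.67, 0.0401) were lower. The GMP markers summed to 37017 to 45907 in AE cells, against 48472 to 52953 in GFP cells. The B cell markers summed to 338 to 457 in AE cells, against 205 to 269 in GFP cells, with Cd79b the only one over 60. The part of such cells in the result was not tested.

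NHA9 cells were compared with GFP cells in the same way, and 0 of the 6 leading probe sets were called by limma (3 had an unadjusted p under 0.05), where 0.200% of tested probe sets were called (22 of 10981, with 1154 at an unadjusted p under 0.05). Tcf4 averaged 8.27 ± 0.18 in NHA9 cells (SD, n = 3) and 7.16 ± 0.29 in GFP cells (SD, n = 3), a log2 difference of 1.11 (SE 0.18, limma adjusted p = 0.0752). Another 2 of its 5 tested probe sets were called, 1434148_at at 1.25 (adjusted p = 0.0283) and 1434149_at at 1.29 (0.0272). Without NHA9 3 the leading probe set was called too (1.03, adjusted p = 0.0340). Id3 had 0.79 (SE 0.16, adjusted p = 0.142) and Tcf12 0.52 (SE 0.14, adjusted p = 0.288), and for these genes and Tcf4 no NHA9 array overlapped a GFP array. Tcf3 had 0.23, Id2 0.20 and Id1 0.087 (adjusted p 0.616 to 0.830).

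The study's joint comparison set all 11 oncogene arrays as 1 class against the 3 GFP arrays, and 0% of the 11632 tested probe sets were called by limma, with 1250 at an unadjusted p under 0.05 and 116 called by the methods' t-test. None of the 6 genes was called. Tcf4 had 1.21 (SE 0.27, adjusted p = 0.196) and Tcf12 0.45 (SE 0.10, adjusted p = 0.196), and both had every oncogene array above every GFP array. When the 3 oncogene group means were averaged instead, so that differences between oncogenes did not enter the spread, Tcf4 was called at 1.20 (adjusted p = 0.00123) and Tcf12 at 0.46 (0.0400). Id2, with -0.28 (adjusted p = 0.886), and Id3, with 0.58 (0.823), had differences of opposite sign in MT2 and AE cells.

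**Figure D3:**
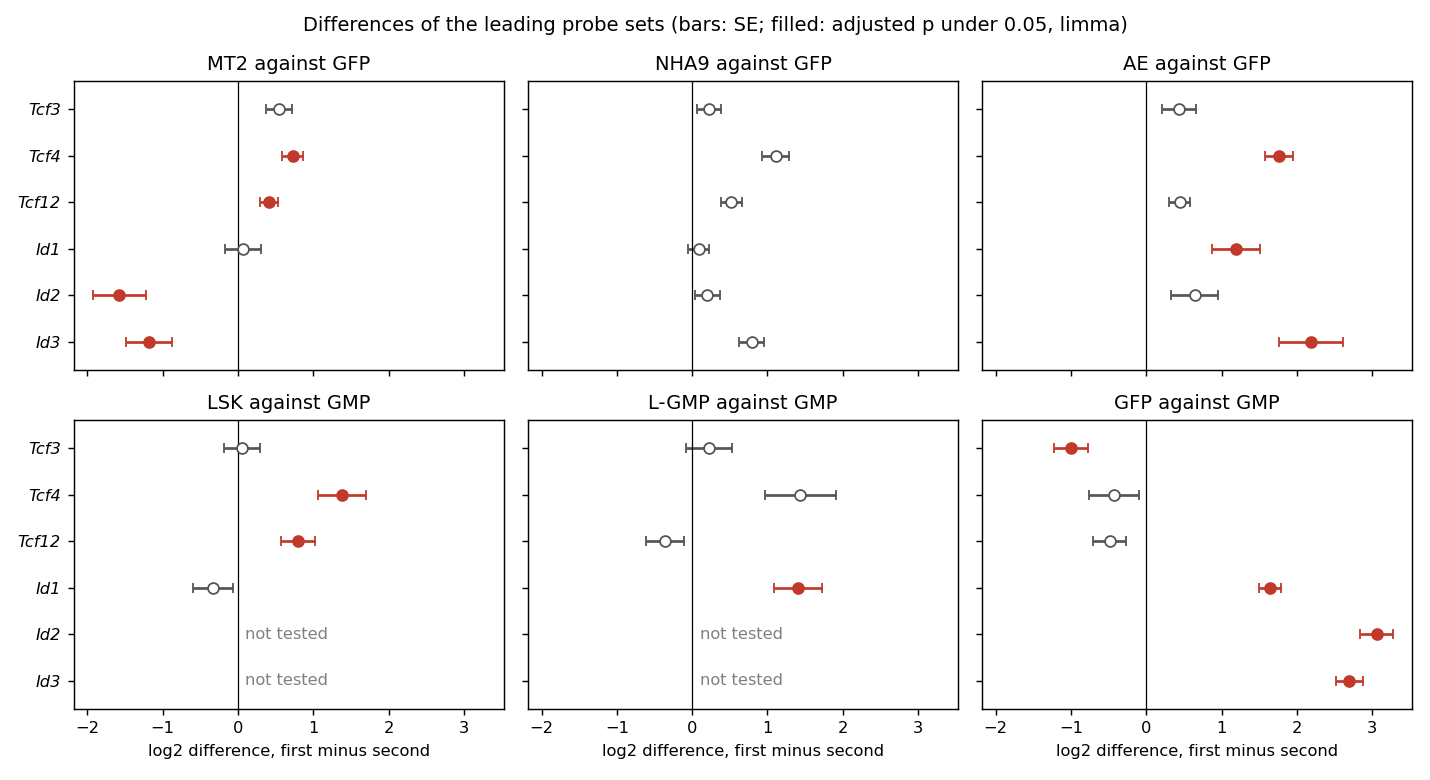
Log2 differences of the 6 leading probe sets (horizontal axis, named group minus the group it is set against) in 6 comparisons, with SE bars. Filled points have a limma adjusted p under 0.05. Id2 and Id3 lie at -1.57 and -1.18 for MT2, and Id3 at 2.19 for AE, against GFP.

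The oncogene groups were then set against each other directly. The comparisons with GFP share the 3 GFP arrays, so these contrasts, from a fit to the 14 transduced arrays, are the tests of whether the oncogenes differ. Between MT2 and AE cells, 4 of the 6 genes were called, all lower in MT2 cells, where 28.5% of tested probe sets were called. Id3 was at least 7.40-fold lower in MT2 cells (log2 difference -3.36, SE 0.38, limma adjusted p = 3.83e-05). Id2 was 4.65-fold lower (-2.22, SE 0.34, adjusted p = 0.000339) and Tcf4 2.05-fold lower (-1.03, SE 0.14, adjusted p = 0.000176). Id1 was 2.17-fold lower (-1.12, SE 0.30, adjusted p = 0.0116) although MT2 arrays overlapped the lowest AE array. Within tag A, where AE 1 is the only AE array, the differences were -1.95 for Id3 (adjusted p = 0.00958), -1.40 for Id2 (0.0439) and -0.81 for Tcf4 (0.0137), and -0.27 for Id1 (0.489), which was then not called.

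Between MT2 and NHA9 cells 2 of the 6 genes were called, where 7.52% of tested probe sets were called. Id2 was 3.42-fold lower in MT2 cells (log2 difference -1.78, SE 0.37, limma adjusted p = 0.0106) and Id3 at least 2.82-fold lower (-1.97, SE 0.41, adjusted p = 0.0116). Within tag A they were -1.58 (adjusted p = 0.0197) and -1.91 (0.00847), and the Id3 call was lost without NHA9 1 (adjusted p = 0.0526). Tcf4 had -0.38 (adjusted p = 0.145), with no overlap between the arrays.

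Between NHA9 and AE cells Tcf4 was the only one of the 6 genes called, 1.57-fold lower in NHA9 cells (log2 difference -0.65, SE 0.15, limma adjusted p = 0.0193), where 7.23% of tested probe sets were called. It was called by 2 of 5 probe sets, and the call was lost without NHA9 1, NHA9 2 or AE 3 (adjusted p 0.0608 to 0.0999) and within tag A, where AE 1 alone stands for AE (-0.53, 0.155). Id1 had -1.10 (adjusted p = 0.0511) and Id3 -1.40 (0.0556), and both were called without AE 1 (-1.44, adjusted p = 0.00145, and -1.85, 0.00113). Within tag A Id3 had -0.044 (0.962) and Id1 -0.18 (0.745), so these differences were on the tag B arrays of AE.

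**Figure D4:**
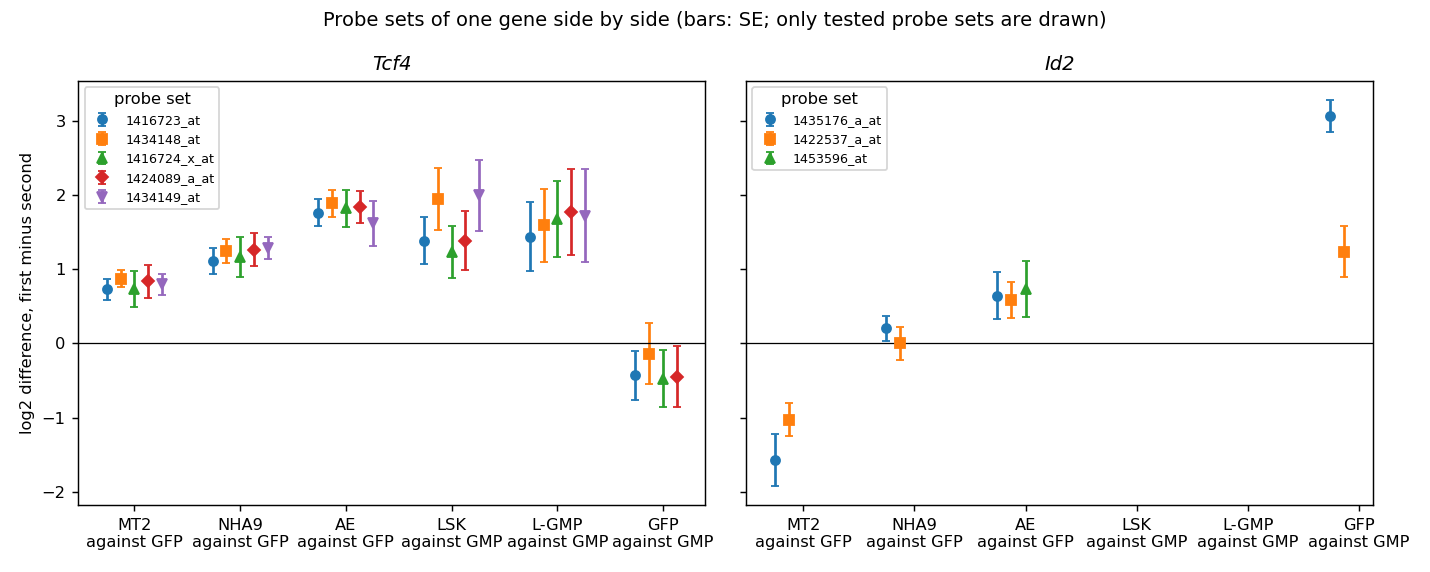
Log2 differences (vertical axis, named group minus the group it is set against) of the tested probe sets of Tcf4 and of Id2 in 6 comparisons (horizontal axis), with SE bars. The tested Tcf4 probe sets share a sign in each comparison, and Id2 probe sets differ in size between GFP and GMP, at 3.06 and 1.24.

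GFP cells were set against fresh GMP to see what transduction and 36 hours in culture go with, since the oncogenes are measured on top of it. All 3 inhibitors were higher and Tcf3 lower in GFP cells, 4 of the 6 genes, where 15.7% of tested probe sets were called. Id2 averaged 7.85 ± 0.28 in GFP cells (SD, n = 3) and 4.79 ± 0.33 in GMP (SD, n = 4), a difference of 3.06 on the log2 scale and at least 3.83-fold (SE 0.22, limma adjusted p = 4.09e-05). The second Id2 probe set gave a smaller difference of 1.24 (SE 0.35, adjusted p = 0.0412). Id3 averaged 6.61 ± 0.27 in GFP cells and 3.92 ± 0.20 in GMP, at least 1.63-fold higher (a log2 difference of 2.69, SE 0.18, adjusted p = 3.3e-05). Id1 averaged 7.60 ± 0.066 in GFP cells and 5.96 ± 0.14 in GMP, 3.12-fold higher (1.64, SE 0.14, limma adjusted p = 0.000121). Its GMP mean was just over background, with 2 of 4 GMP arrays over it, so this fold rests on a reference near background.

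Tcf3 averaged 6.94 ± 0.20 in GFP cells (SD, n = 3) and 7.94 ± 0.39 in GMP (SD, n = 4), 2.00-fold lower (SE 0.22 on the log2 scale, limma adjusted p = 0.0170), and its call was lost without GFP 1 or GFP 2 (adjusted p 0.0724 and 0.0865). Tcf4 had -0.43 (SE 0.33, adjusted p = 0.435) and Tcf12 -0.49 (SE 0.22, adjusted p = 0.180), and without GMP 2, the GMP array with the lowest correlation with its group, both were called (-0.73, adjusted p = 0.0179, and -0.68, 0.00577). The 3 Id calls held without any 1 array and within tag A. In the same comparison the macrophage markers Adgre1 (1.85), Cd68 (1.56) and C1qb (1.33) were higher, all 3 tested of 6 on the array (limma adjusted p 0.000742 to 0.00901), and the list summed to 1279 to 1521 in GFP cells, against 441 to 671 in GMP. Mast cell and basophil markers were lower, 3 of 3 tested, with sums of 418 to 496 in GFP cells, against 1569 to 2454 in GMP. Lower in GFP cells were also the LSK markers Cd34 (-2.31), Kit (-1.50) and Meis1 (-1.78), 3 of 4 tested, and the plasmacytoid dendritic marker Irf8 (-1.75), 1 of 2 tested (limma adjusted p 0.000282 to 0.0131). Cd34, Kit and Irf8 were well over background in GMP, with means of 9.65, 10.27 and 10.71, so they are not particular to the cells their lists name. Meis1 had means of 4.09 in GFP cells and 5.87 in GMP, both below background. The erythroid markers Gata1 (-0.69) and Klf1 (-0.96), 2 of 3 tested, were lower too. Both were below background in GFP cells, with means of 5.23 and 5.38, and near it in GMP, at 5.92 and 6.34. The GMP markers Csf1r (0.87) and Fcgr3 (0.77), 2 of 7 tested, and the conventional dendritic marker H2-Ab1 (0.78), 1 of 3 tested, were higher. The limma adjusted p of these named genes was 0.00575 to 0.0379. The median log2 difference was -0.063 over the tested GMP markers and -0.75 over the tested conventional dendritic markers. The part of these cells in the Id result was not tested, and transduction and culture cannot be told apart.

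L-GMP were compared with GMP as the established MOZ-TIF2 leukemia. Id1 was the only one of the 4 tested genes called, where 4.86% of tested probe sets were called. It averaged 7.36 ± 0.74 in L-GMP (SD, n = 3) and 5.96 ± 0.14 in GMP (SD, n = 4), 2.65-fold higher (log2 difference 1.41, SE 0.32, limma adjusted p = 0.0407). The fold rests on a GMP reference near background, with 2 of 4 GMP arrays over it. The call was lost without any 1 array except L-GMP 3 (adjusted p 0.0518 to 0.147), and within tag A the difference was 1.58 (adjusted p = 0.0461). Within tag A the L-GMP group is L-GMP 1 alone, the array with the lowest correlation with its group, and it is assumed to vary like GMP. The leading probe sets of Id2 and Id3 were below background on all L-GMP and GMP arrays, and no Id2 or Id3 probe set was tested.

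Tcf4 averaged 9.03 ± 0.91 in L-GMP and 7.59 ± 0.66 in GMP, a log2 difference of 1.44 (SE 0.47, limma adjusted p = 0.131). L-GMP 1 had the lowest value of its group, and without it Tcf4 was called at 1.95 (adjusted p = 0.0172). Without L-GMP 2, the highest, it was 1.09 (adjusted p = 0.452), and within tag A, on L-GMP 1 alone, 0.55 (0.664). Tcf3 had 0.22 (SE 0.31, adjusted p = 0.776) and Tcf12 -0.36 (SE 0.25, adjusted p = 0.517). Macrophage markers summed to 980 to 1780 in L-GMP, against 441 to 671 in GMP, with Cd68 higher (1.88, limma adjusted p = 0.0121). Of 4 tested LSK markers, Meis1 was higher (2.27, limma adjusted p = 0.0118) and Kit lower (-2.25, 0.00229), and their median log2 difference was -0.82. Meis1 was just below background in GMP (5.87), so its rise was at least 4.70-fold. Of 7 tested GMP markers, Csf1r was higher (1.65, 0.00500), and their median was -0.53. The T cell marker Lat was higher (1.10, 0.0343), 1 of 2 tested, and the basophil marker Mcpt8 lower (-1.67, 0.0419), 1 of 3 tested. The T cell markers summed to 253 to 343 in L-GMP, against 182 to 268 in GMP. Of them, Cd3d, Cd3e, Cd3g, Cd4 and Cd8a were under 60 on every L-GMP array. The part of such cells in the result was not tested.

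LSK cells, the population that holds the blood stem cells among other progenitors, were compared with GMP. Tcf4 and Tcf12 were higher in LSK cells, 2 of the 4 tested genes, where 15.1% of tested probe sets were called. Tcf4 averaged 8.97 ± 0.094 in LSK cells (SD, n = 3) and 7.59 ± 0.66 in GMP (SD, n = 4), 2.61-fold higher (log2 difference 1.38, SE 0.32, limma adjusted p = 0.0189), by 5 of 5 tested probe sets. Tcf12 averaged 9.57 ± 0.025 in LSK cells and 8.77 ± 0.41 in GMP, 1.74-fold higher (0.80, SE 0.22, adjusted p = 0.0399), and its other probe set gave 0.83 (adjusted p = 0.0166).

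GMP 2 had the lowest GMP value of both genes, and without it the differences were 1.08 for Tcf4 (adjusted p = 0.00242) and 0.61 for Tcf12 (0.0118). The Tcf4 call was lost without GMP 1 or any LSK array (adjusted p 0.0551 to 0.0717), and the Tcf12 call without GMP 1, GMP 3 or any LSK array (0.0557 to 0.140). Within tag A both calls were lost, at 1.48 for Tcf4 (adjusted p = 0.0653) and 0.92 for Tcf12 (0.0721). Tcf3 had 0.051 (SE 0.24, adjusted p = 0.904). Id1 had -0.33 (SE 0.27, adjusted p = 0.454), with means below background in LSK cells and just over it in GMP. The leading probe sets of Id2 and Id3 were below background on all arrays of both groups, and no Id2 or Id3 probe set was tested. In the same comparison 5 of 6 tested LSK markers were higher and 7 of 7 GMP markers lower in LSK cells. The T cell marker Lat was higher (1.52, limma adjusted p = 0.00118), 1 of 2 tested. The T cell list summed to 329 to 385 in LSK cells, against 182 to 268 in GMP, with Cd3d, Cd3e, Cd3g, Cd4 and Cd8a under 60 on every LSK array. Of 3 tested plasmacytoid dendritic markers, Irf8 was lower (-1.62, adjusted p = 0.00290) and Irf7 higher (1.00, 0.0203). Irf7 averaged 5.78 in GMP, below background, so its rise was at least 1.84-fold. The conventional dendritic markers Flt3 (3.21) and H2-Aa (1.95), 2 of 4 tested, and the erythroid markers Gata1 (1.12) and Klf1 (1.27), 2 of 3 tested, were higher. The mast cell marker Hdc (-2.59), 1 of 3 tested, was lower. The limma adjusted p of these named genes was 0.000207 to 0.0167. The part of other cells in the result was not tested.

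Genes that work with E proteins were described from a list of 30 partners and corepressors, 27 of them on the array. In MT2 cells against GFP cells, 4 of 15 tested were higher and 1 lower, where 11.8% of all tested probe sets were called, with a median log2 difference of 0.36 against 0.075 over all tested probe sets. Lmo2, a bridge in the Tal1 complex, was at 1.19 (limma adjusted p = 0.00853), Tal1, the E protein partner of stem and erythroid cells, at 1.34 (0.0141), and Kat2a, an acetyltransferase, at 0.66 (0.0253). Tal1 was below background in GFP cells, so its rise was at least 2.36-fold. Bhlhe40, a helix-loop-helix repressor, was the lower one at -1.20 (0.0204).

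In AE cells against GFP cells 3 of 15 were higher and 1 lower (11.0% of all called, median 0.23 against 0.084), with Lyl1, a relative of Tal1, at 0.85 (limma adjusted p = 0.00921) and Cbfa2t3, a relative of ETO, at -0.76 (0.0143). In NHA9 cells 0 of 14 were called (0.200% of all). In GFP cells against GMP 1 of 16 was higher and 7 were lower (15.7% of all called, median -0.60 against -0.045): Bhlhe40 was at 2.48 (1.86e-05), Kat2a at -1.48 (0.00259) and Tal1 at -1.64 (0.00828). Bhlhe40 was below background in GMP, at least 3.38-fold higher in GFP cells, and Tal1 below it in GFP cells, at least 2.89-fold lower. In L-GMP against GMP, Lmo2 at 1.24 (0.0110) and Runx1, the gene known as AML1, at 1.25 (0.0435) were higher, 2 of 15 (4.86% of all called, median 0.23 against 0.027). In LSK cells against GMP 8 of 15 were higher and 2 lower (15.1% of all called, median 0.75 against 0.055), led by Lmo2 at 1.28 (0.00141), Tal1 at 2.02 (0.0034) and Gata2, a stem cell factor, at 1.59 (0.00428).

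Upstream of the Id genes, 34 genes of BMP and TGF-beta signalling were listed, 32 on the array. In AE cells against GFP cells 6 of 14 tested were higher and 0 lower, where 11.0% of all tested probe sets were called, with a median of 0.41 against 0.084 over all tested probe sets. Smad1, which carries BMP signals, was at 0.84 (limma adjusted p = 0.00628), and the inhibitory Smad6 and Smad7 were at 1.40 (0.00205) and 1.10 (0.0103), with Acvr1b, an activin receptor, at 0.92 (0.0112). Smad6 was below background in GFP cells, so its rise was at least 1.24-fold. In MT2 cells against GFP cells 3 of 14 were higher and 3 lower (11.8% of all called, median 0.0091 against 0.075), with Smad7 at 1.10 (0.00909), Tgif1, a Smad corepressor, at 1.13 (0.0134), Skil, another, at -0.85 (0.0152) and the receptor Tgfbr2 at -0.57 (0.0185).

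In the direct contrast of MT2 with AE cells, 8 of 15 genes of this pathway were lower and 3 higher (28.5% of all tested probe sets called, median -0.47 against -0.013), with Smad6 at -1.09 (limma adjusted p = 7.78e-05) and Smad1 at -0.88 (0.000103). Smad6 was below background in MT2 cells, so it was at least 1.24-fold lower there. In NHA9 cells against GFP cells 0 of 14 were called (0.200% of all). In LSK cells against GMP 5 of 15 were higher and 0 lower (15.1% of all called, median 0.60 against 0.055). In L-GMP against GMP 1 of 15 was called (4.86% of all), Smad7 at 1.20 (0.0305), and in GFP cells against GMP 1 of 14 (15.7% of all), Skil at 1.89 (0.00127).

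Genes known as E protein targets in lymphoid cells formed the third list, 32 genes with 31 on the array, which contains Id2 and Id3 themselves. In MT2 cells against GFP cells 0 of 13 tested were higher and 3 lower, where 11.8% of all tested probe sets were called: Id2, Id3 and the receptor Notch1 at -0.77 (limma adjusted p = 0.00873), with a median of -0.25 against 0.075 over all tested probe sets. In AE cells against GFP cells 2 of 15 were higher, Id3 and the cytokine receptor Il7r at 1.24 (0.0179), and the repressor Gfi1 was lower at -0.90 (0.0305), with 11.0% of all called and a median of -0.082 against 0.084. Il7r was below background in GFP cells, so its rise was at least 1.15-fold. In NHA9 cells 0 of 15 were called (0.200% of all).

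In GFP cells against GMP 6 of 13 of these genes were higher and 0 lower (15.7% of all tested probe sets called, median 0.41 against -0.045). Of the 6, 2 are Id2 and Id3 themselves, and the others include Socs3, a brake on cytokine signalling, at 6.12 (limma adjusted p = 1.96e-06) and Cdkn1a, a cell cycle inhibitor, at 2.85 (1.7e-05). Socs3 was below background in GMP, so its rise was at least 21.6-fold. In L-GMP against GMP 3 of 10 were higher (4.86% of all called, median 0.45 against 0.027), Cdkn1a at 1.97 (0.00365), Socs3 at 2.50 (0.0219) and Gfi1 at 1.14 (0.0444). Against the same GMP level the rise of Socs3 was at least 1.75-fold. In LSK cells against GMP 6 of 13 were higher and 1 lower (15.1% of all called, median 0.25 against 0.055), led by Dntt, the terminal transferase of lymphoid progenitors, at 4.31 (1.39e-05) and Flt3, a cytokine receptor, at 3.21 (0.000408). Dntt was below background in GMP, so its rise was at least 14.1-fold.

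The genes most like each of the 6 were named by the correlation of group means over the 7 groups, among 2764 genes with group means spanning at least 1 on the log2 scale. These correlations rest on 7 points from the same arrays and are descriptions. Those for Id2 were Lrrk2 (0.996), Grhpr (0.984) and Hint3 (0.984), for Id3 Ahrr (0.998), Rnase4 (0.995) and Arg1 (0.994), and for Id1 Arfgap3 (0.993), Stab1 (0.989) and Sgk1 (0.983). Those for Tcf4 were Rabep2 (0.960), Tes (0.955) and Parp14 (0.953), for Tcf12 Zfpm1 (0.975), F2r (0.967) and Zcchc7 (0.966), and for Tcf3 Gtf3c6 (0.995), Utp25 (0.983) and Zfp593 (0.978). Arg1, which encodes arginase, had the widest span of these, 8.93, with its highest mean in AE cells, as Id3 had.

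Of the probe sets that were not leading, 1416725_at of Tcf4 and 1452542_x_at of Tcf3 were under 60 on all 24 arrays, and 1427764_a_at of Tcf3 and 1453596_at of Id2 were over it on 2 arrays each. The other 4 Tcf4 probe sets were over 60 on 18 to 24 arrays. Id1 and Id3 had 1 probe set each, so their values have no second probe set beside them.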

How the data were processed

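The deposited table holds log2 expression estimates that the authors made with GCRMA 2.4.1 from MAS5 cell files, per the submitters' processing notes. That method subtracts a background predicted from probe letters and equalizes arrays, so nothing was normalized again. Per the design text of the series, the authors had removed outlier arrays; which ones is not known here. Of 22690 probe sets, 64 controls were left out. A single gene symbol was listed for 20380, several for 691 and none for 1555, and 20351 matched a RefSeq gene table, which changed 0 symbols. Probe sets were tested with limma 3.58.1 under R 4.3.3 (default lmFit and eBayes, tested on simulated data) on the arrays of the groups compared, in 10 comparisons. Alternatives are in the closing section. The genes, the lists and the tests were chosen with earlier results of these data known. From each list, up to 4 genes with the smallest adjusted p per comparison could be named, and for each gene the 3 with the most similar group means. Replicate numbers recur in every group, but in no comparison did all same-numbered arrays deviate together (correlations over 0.1), so they were not used as pairs. The authors' Welch test is called the methods' t-test. The number of arrays limits the precision.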

Additional observations from a re-analysis of the deposited data

Results flagged for a closer look

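In 18 groups of 4 arrays examined over the 6 leading probe sets, 2 held an array far from the others, and chance alone marks about 1 in 20 groups. Tcf3 was at 7.05 on MT2 3, with a gap to the nearest MT2 array of 0.831 of the group's range, just past Dixon's critical ratio. Id1 was at 6.16 on GMP 4, with a gap of 0.839 of the range, and GMP 4 is the only GMP array of tag B.

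The effects of the oncogenes against the same GFP arrays differed by the direct contrasts of limma. Between MT2 and NHA9 cells these were Id2 (-1.78) and Id3 (-1.97). Between MT2 and AE cells they were Tcf4 (-1.03), Id1 (-1.12), Id2 (-2.22) and Id3 (-3.36). Between NHA9 and AE cells it was Tcf4 (-0.65). Among these, the calls of Id1 between MT2 and AE cells and of Tcf4 between NHA9 and AE cells were lost within tag A.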

How the results depend on the processing

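Of 56 gene results, 21 were called. Over 325 alternatives of these 21, all 325 kept the direction and 232 kept the call, and 5 results kept it in every alternative: Id1, Id2 and Id3 in GFP cells against GMP, and Tcf4 and Id3 in MT2 against AE cells. The other calls were all lost by the methods' t-test. Of 566 alternatives of results not called, 26 passed the threshold. Small differences that were not called changed sign in 30. Id1 in MT2 cells against GFP was -0.041 with quantile normalization, -0.093 with the replicate block and within tag A, and -0.12 with the tag as a factor. Id1 in NHA9 cells was -0.015 with quantile normalization, -0.0021 within tag A and -0.049 with the tag as a factor. With all oncogenes joined, Id1 was -0.018 and Id3 -0.17 within tag A, and Id2 was 0.090 by 1453596_at. Tcf3 in LSK cells against GMP was -0.078 with quantile normalization. In L-GMP against GMP, Tcf3 was -0.046 within tag A and Tcf12 0.067 by 1421908_a_at. In MT2 against AE cells, Tcf3 was -0.25 and Tcf12 0.030 within tag A, and Tcf12 was 0.11 with the tag as a factor. Id2 in NHA9 against AE cells was 0.17 within tag A. Leaving out 1 array gave -0.093 to 0.30 for Id1 in MT2 cells and -0.0021 to 0.14 for Id1 in NHA9 cells against GFP, -0.10 to 0.22 for Tcf3 in LSK cells and -0.077 to 0.44 in L-GMP against GMP, -0.18 to 0.21 for Id1 in MT2 against NHA9 cells, and -0.047 to 0.26 for Tcf3 and -0.079 to 0.016 for Tcf12 in MT2 against AE cells. The causes were not tested.

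The background counts of called probe sets moved by over 1.5 times in these settings. For MT2 against GFP (1316) it was 190 in 1 fit to all 24 arrays, 303 with the tag as a factor, 0 by the methods' t-test and 170 to 1607 without 1 array (lowest without GFP 2). For NHA9 (22) it was 7, 13 and 0 in these settings, 1 with the replicate block, 202 within tag A and 1 to 202 without 1 array. For AE (1249) it was 399 with the replicate block, 1951 within tag A, 0 by the t-test and 329 to 3061 without 1 array (without GFP 2 and AE 1). For all oncogenes (0) it was 51 in 1 fit, 25 with the tag as a factor, 116 by the t-test and 217 with the group means averaged. For LSK against GMP (1734) it was 2795 with quantile normalization, 2997 with the tag as a factor, 268 by the t-test and 765 to 2864 without 1 array. For L-GMP against GMP (556) it was 2006 in 1 fit, 1969 with the tag as a factor, 346 with the replicate block, 226 within tag A, 15 by the t-test and 211 to 1180 without 1 array (without L-GMP 2 and L-GMP 1). For GFP against GMP (1782) it was 2817 with quantile normalization, 2719 with the tag as a factor, 606 by the t-test and 811 to 4043 without 1 array (without GFP 2 and GMP 2). For MT2 against NHA9 (840) it was 361 in 1 fit, 2104 within tag A, 3 by the t-test and 239 to 1085 without 1 array. For MT2 against AE (3247) it was 961 by the t-test. For NHA9 against AE (823) it was 499 in 1 fit, 311 with the tag as a factor, 0 by the t-test and 408 to 1393 without 1 array.

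With 3 or 4 arrays a group, the adjusted p of a member often crossed the threshold when 1 array was left out. Id2 and Id3 lay near or below background in MT2 cells, so their folds there are bounds or rest on few arrays over background. All GFP arrays carry tag A and most AE arrays tag B, so within tag A the AE group is 1 array, and so is the L-GMP group.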
